A study of Mus musculus with 24 samples.

Results

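The serotonin receptors were examined as a family of 10 genes, Htr1a, Htr1b, Htr1d, Htr1f, Htr2a, Htr2c, Htr3a, Htr4, Htr6 and Htr7. They were chosen by gene symbol, through the Ensembl identifier of each row, from the 37991 genes of the deposited count table, by a rule that uses no measured value, although the family was proposed with earlier results of these data known. Their mRNA was measured by RNA sequencing of the mouse nucleus accumbens, the ventral striatal region that serves reward and motivation, in 24 libraries from 8 groups of 3. All mice were C57BL/6J. In the wild-type experiment, WT mice without virus formed 4 groups: control females, stressed females, control males and stressed males. In the floxed experiment every mouse, the GFP controls included, was stressed and had the genotype Dnmt3a2lox/2lox, in which loxP sites flank a part of the DNA methyltransferase gene Dnmt3a. Its 4 groups were females and males given AAV-GFP, an adeno-associated virus for green fluorescent protein alone, or AAV-CRE, a virus for Cre recombinase, which cuts out the flanked part. Each library held the pooled mRNA of 4 mice and is described as an independent biological replicate, so n counts libraries. The sources used here do not give the promoter that drove Cre, the age of the mice or the length of the stress. The labels give nucleus accumbens as the tissue, while the protocol names dorsal striatum beside it for the punches. Total counts ran from 7116123 to 12145551 per wild-type library and from 28132563 to 59829070 per floxed library. Cre male library 2, GFP female library 3 and Cre female library 2 stood apart from the other floxed libraries in markers of septum, pallidum and hypothalamus. The values of Htr1a, Htr1b, Htr1d, Htr4 and Htr7 that moved most with them are given with and without them. In markers of cortical excitatory neurons all 3 Cre male libraries stood apart, at 706 to 1187 CPM summed against at most 520.0 CPM in the other floxed groups.

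Serotonin reaches the accumbens through axons of the raphe nuclei in the brainstem, while receptors for it are made by striatal cells. All members but one are receptors that signal through G proteins. Htr1a, Htr1b, Htr1d and Htr1f couple to Gi/o proteins, which lower cyclic AMP, and Htr1b and Htr1d receptors sit largely on axon endings where they hold back transmitter release. Htr2a and Htr2c couple to Gq and phospholipase C, and Htr4, Htr6 and Htr7 couple to Gs, which raises cyclic AMP. Htr3a encodes the subunit of a serotonin-gated cation channel and is typical of a class of cortical interneurons. Striatal medium spiny neurons, the projection neurons that carry either the D1 or the D2 dopamine receptor, are known to express several of these genes, among them Htr1b, Htr2c, Htr4 and Htr6. In a bulk library, fewer cells of a type and less RNA per cell cannot be told apart.

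Because Dnmt3a methylates cytosine in the dinucleotide CG, the upstream sequences of 3 members are shown with each CG in capitals. Methylation was not measured in these libraries. The sequences are RefSeq windows of 250 bases before the annotated start on build GRCm38.p6, read 5′ to 3′ on the strand of the gene. Htr1b and Htr1d are shown because their mRNA levels moved together across libraries, which in the floxed experiment rested largely on 2 libraries. Htr2c is shown because it was the most abundant member. Only windows that overlap no annotated exon are shown, which leaves out Htr1a and Htr7, the pair that moved together most closely.
Htr1b, chr9:81633833-81634082, minus strand: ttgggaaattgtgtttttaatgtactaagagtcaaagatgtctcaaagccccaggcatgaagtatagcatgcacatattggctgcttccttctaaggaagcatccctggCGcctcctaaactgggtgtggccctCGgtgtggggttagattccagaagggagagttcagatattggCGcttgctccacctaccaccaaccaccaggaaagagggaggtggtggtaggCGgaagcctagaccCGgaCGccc
Htr1d, first start, chr4:136423274-136423523, plus strand: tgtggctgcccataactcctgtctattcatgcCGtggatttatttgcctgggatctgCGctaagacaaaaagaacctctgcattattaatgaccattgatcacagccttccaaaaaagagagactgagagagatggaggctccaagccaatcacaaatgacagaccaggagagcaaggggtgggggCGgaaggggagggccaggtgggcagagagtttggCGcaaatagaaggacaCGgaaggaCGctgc
Htr1d, second start, chr4:136424362-136424611, plus strand: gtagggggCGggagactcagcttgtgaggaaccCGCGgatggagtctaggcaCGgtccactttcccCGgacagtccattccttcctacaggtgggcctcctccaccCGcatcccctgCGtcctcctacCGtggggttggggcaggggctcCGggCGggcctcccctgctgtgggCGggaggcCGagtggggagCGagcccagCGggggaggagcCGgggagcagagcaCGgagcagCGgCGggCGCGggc
Htr2c, chrX:146962263-146962512, plus strand: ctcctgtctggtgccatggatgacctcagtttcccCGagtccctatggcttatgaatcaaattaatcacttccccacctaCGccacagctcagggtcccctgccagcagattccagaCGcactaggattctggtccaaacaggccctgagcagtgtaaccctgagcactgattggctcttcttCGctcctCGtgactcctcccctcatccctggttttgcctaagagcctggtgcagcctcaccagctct
The Htr1b window held 6 CG and the Htr2c window 5. The windows of the 2 annotated Htr1d starts held 6 and 20. Of 32851 windows of the same length before annotated starts, 50.4% held at least 6 CG, 55.6% at least 5 and 17.9% at least 20. CG reads the same on both strands, so 1 search covers both. RefSeq windows were matched for 8 of the 10 members, not for Htr3a and Htr4. The remaining windows held 6 CG for Htr1a, 7 for Htr1f, 4 for Htr2a, 23 and 9 for the 2 starts of Htr6, and 41 for Htr7. A count of 41 was reached by 1.1% of all windows, so the Htr7 window was the most CG-dense of those matched. The windows of Htr1a, Htr1f, Htr2a, Htr7 and the second Htr6 start overlap annotated exons of their own gene.

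Htr2c was the most abundant serotonin receptor in every library. Levels between genes are compared as CPM (counts scaled to library size with the trimmed mean of M values) per kilobase of annotated exon. On this scale Htr2c stood at 19.6 ± 3.16 in wild-type and 23.6 ± 1.83 in floxed libraries (SD, n = 12 libraries each). It made up 43.6% and 53.1% of the summed level of the 10 members, and stood 4.21 and 6.72 times above the next member. It exceeded the next member within 12 of 12 libraries of each experiment. The order below it was Htr6, Htr1d, Htr4, Htr2a, Htr1a, Htr7, Htr1b, Htr1f and Htr3a in the wild-type experiment. In the floxed experiment it was Htr1d, Htr6, Htr1a, Htr4, Htr2a, Htr7, Htr1f, Htr1b and Htr3a. Apart from Htr2c, the ranges of neighbours in these orders overlapped, so only its place was set by values beyond the spread, although Htr1f exceeded Htr3a within 12 of 12 wild-type libraries.

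**Figure D1:**
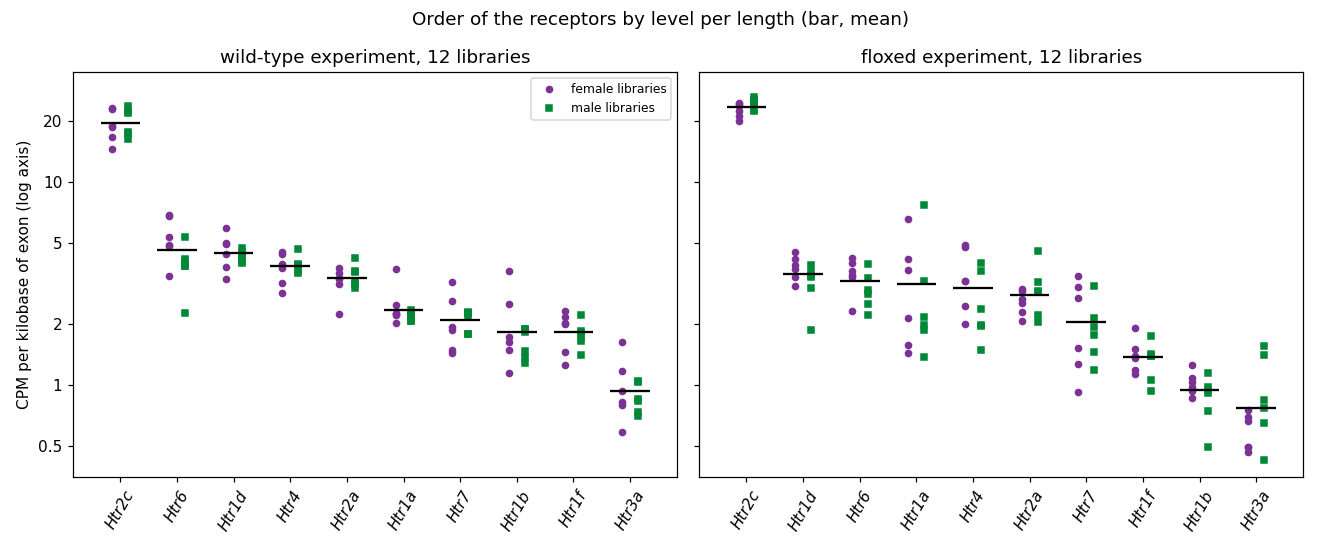
Level of each serotonin receptor per library in CPM per kilobase of exon, on a log axis, ordered by the mean (bar) over 12 libraries in each experiment, with female libraries as circles and male libraries as squares. Htr2c stands apart from the other 9 members in both panels, Htr3a is lowest, and the members between them overlap.

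Htr3a was the least abundant member at 0.93 ± 0.27 CPM per kilobase in wild-type and 0.77 ± 0.36 in floxed libraries. Its raw counts per library were 12 to 33 in the first and 33 to 179 in the second, so its wild-type values rest on few reads. In the middle of the order, Htr6 held 4.65 ± 1.34 and 3.24 ± 0.68 CPM per kilobase, Htr1d 4.46 ± 0.66 and 3.51 ± 0.67, and Htr4 3.87 ± 0.53 and 3.01 ± 1.14, each value pair giving the wild-type and then the floxed experiment. Htr2a held 3.36 ± 0.49 and 2.77 ± 0.68, and Htr1a 2.34 ± 0.45 and 3.16 ± 2.08. The experiments differ in genotype, virus and depth together, so no fold change was computed between them. Exon length matters most for Htr2c, whose annotated exons add up to 9328 bases against 4883 for its longest transcript. With the longest transcript as length, its level was 37.4 and 45.0 CPM per kilobase and it was again first.

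The members differed in how steady they were between libraries of the floxed experiment. Htr2c ranged from 187 to 247 CPM, a coefficient of variation (SD over mean) of 7.75%. Htr1a ranged from 6.17 to 34.6 CPM, a 5.61-fold span and a coefficient of 65.7%. Htr3a and Htr7 followed with 46.9% and 41.1%. In the wild-type experiment Htr1b varied most, at 37.4%, and 1 library, control female library 1 with 17.3 CPM, stood above the 5.43 to 11.9 CPM of the other 11. Htr4 varied least there, at 13.7%.

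**Figure D2:**
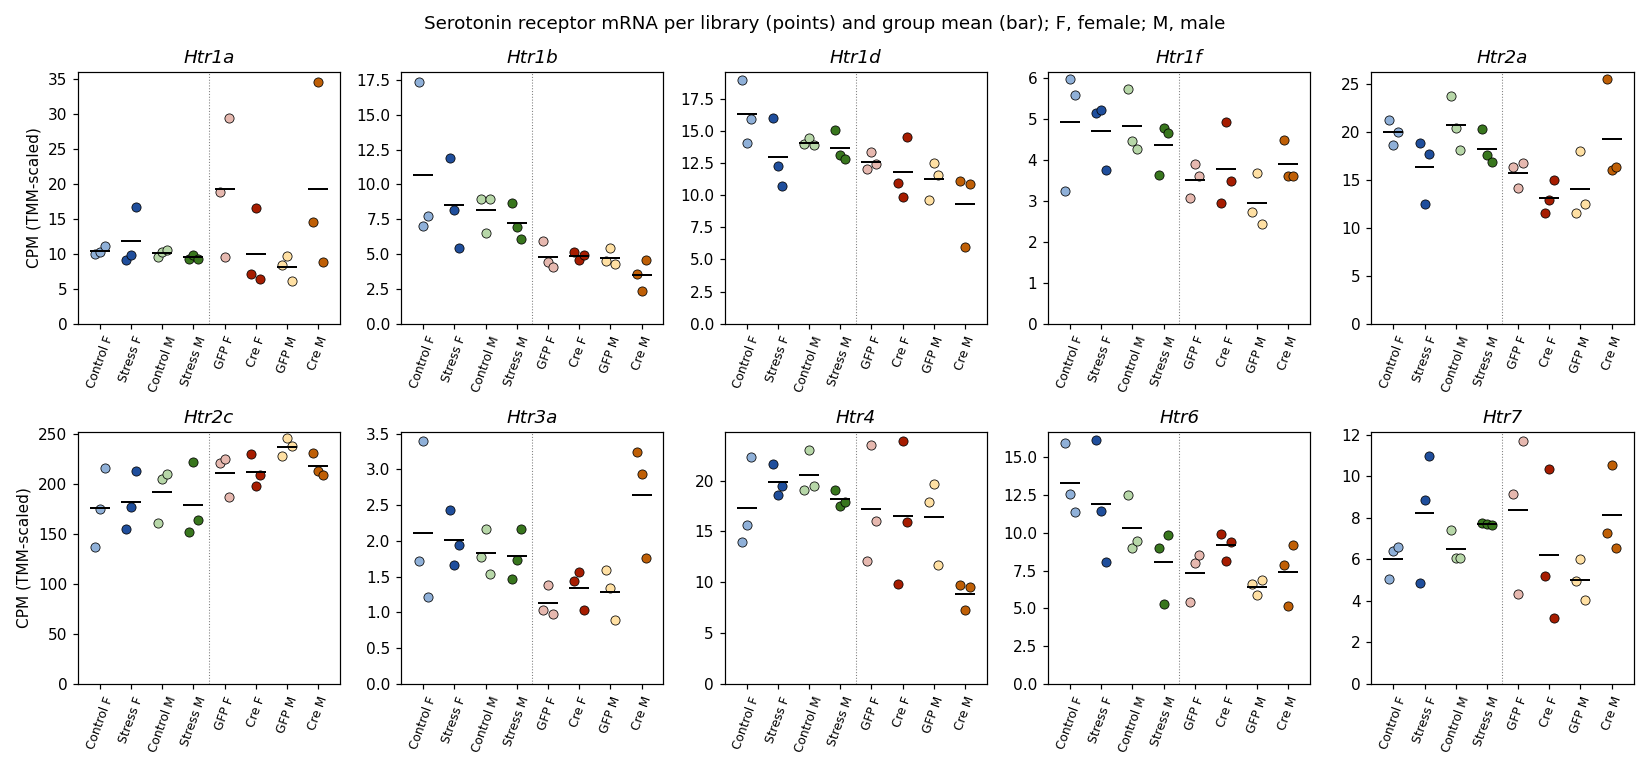
CPM of each serotonin receptor in all 24 libraries (points) with the mean of each group of 3 (bar), wild-type groups to the left and floxed groups to the right of the dotted line, which were scaled apart. Htr2c varies little in the floxed groups, Htr1a reaches 34.6 CPM in 1 Cre male and 29.4 CPM in 1 GFP female library, and the 3 Cre male libraries are the lowest of the floxed experiment for Htr4.

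The first question of the design is whether stress changes gene expression in each sex. No serotonin receptor rose or fell with stress in either sex at an adjusted p below 0.05, with edgeR's quasi-likelihood test and Benjamini-Hochberg adjustment over 15249 genes. The largest difference in females was that of Htr7, at 0.45 on the log2 scale, and in males that of Htr6, at -0.36. Calls were rare among all genes too, at 0% in females, 0.00656% in males, 0.0131% for the mean of the sexes and 0% for the difference between the sexes. The pairing of replicate numbers held in wild-type females, and with the replicate block within sex 5 genes were called in females, none of them a serotonin receptor. None of the 10 members had an unadjusted p below 0.05 in these 4 comparisons, against 1.68%, 2.81%, 3.21% and 1.19% of all genes, and DESeq2 and limma-voom called 0 members.

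Among the Gs-coupled members, Htr7 stood at 5.07, 6.38 and 6.59 CPM in the control and 4.88, 8.85 and 11.0 CPM in the stressed females. In males it stood at 7.41, 6.08 and 6.04 CPM in the controls and at 7.75, 7.71 and 7.67 CPM after stress. The female groups overlapped, with 1 stressed library below all controls, while the stressed males lay just above all control males. The log2 difference was 0.45 (SE 0.25) in females, 0.24 (SE 0.24) in males and 0.35 (SE 0.17) over both, with an unadjusted p of 0.0649 for the mean and an adjusted p of 1 in edgeR. Without stressed female library 3 the female value was 0.20, and without stressed female library 1 it was 0.72. Htr7 in males was the only member whose groups did not overlap, 1 of 10 members beside 7.91% of all genes, and in females 0 of 10 members were free of overlap beside 5.3%. Htr6, which is concentrated in striatal neurons, had log2 differences of -0.16 (SE 0.27) in females and -0.36 (SE 0.28) in males. Htr4 had values of 0.20 (SE 0.17) and -0.17 (SE 0.17).

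The Gi/o-coupled members had log2 differences between -0.33 and 0.18 after stress. Htr1d stood at 19.0, 14.1 and 15.9 CPM in control and 16.0, 12.3 and 10.7 CPM in stressed females. The groups overlapped, while each stressed library was lower than the control library of the same number. The log2 difference was -0.33 (SE 0.17), and -0.33 (SE 0.14, unadjusted p = 0.0292, edgeR adjusted p = 0.821) with the replicate block within sex. In males Htr1d was nearly level, at -0.04 (SE 0.17). Htr1b also had a female value of -0.33 but a larger SE of 0.35, and without control female library 1, which stood far above the others, the value turned to 0.21. Htr1a differed by 0.18 (SE 0.20) in females and -0.09 (SE 0.20) in males, and Htr1f by -0.06 (SE 0.26) and -0.15 (SE 0.25).

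Of the Gq-coupled members, Htr2a was lower on average in both sexes without passing the test, at -0.29 (SE 0.17) in females, -0.18 (SE 0.17) in males and -0.24 (SE 0.12, unadjusted p = 0.071, edgeR adjusted p = 1) over both. Htr2c, the dominant member, stood at 137, 175 and 216 CPM in control and 156, 177 and 213 CPM in stressed females. Male controls held 161, 206 and 210.1 CPM and stressed males 152, 222 and 164 CPM. All 4 groups spanned nearly the same range, and the log2 differences were 0.05 (SE 0.20) and -0.10 (SE 0.20). The channel subunit Htr3a differed by -0.07 (SE 0.37) and -0.02 (SE 0.37). Over the family the median log2 difference was -0.07 in females and -0.12 in males, against -0.006 and -0.001 for all genes tested. The choroid plexus list, which marks tissue of the ventricle, was uneven between libraries, with a summed level of 53.9, 1154 and 2801 CPM in control and 183, 93.3 and 212 CPM in stressed males. The male groups overlapped, as the lowest control library lay below every stressed library. From low to high, female sums were 50.1, 68.1 and 611 CPM in control and 61.9, 486 and 496 CPM in stressed libraries. Of the 15 tested genes of this list 14 were negative after stress in males, with a median log2 difference of -3.16 and none called. Its part in the male receptor values was not tested beyond a fit with this score as covariate. In females the cortical list summed to 551 to 698 CPM in control and 528 to 574 CPM in stressed libraries, which overlapped. Slc17a7 of that list did not overlap, at 29.9 to 109 CPM in control and 9.89 to 26.6 CPM in stressed females. The part of cortical tissue in the female receptor values was not tested beyond a fit with the cortical score as covariate.

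The stress effect was not shown to differ by sex for any member. The difference of the 2 effects, female minus male, ran from -0.29 (SE 0.24, Htr1d) to 0.37 (SE 0.24, Htr4) on the log2 scale, each with an edgeR adjusted p of 1.

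**Figure D3:**
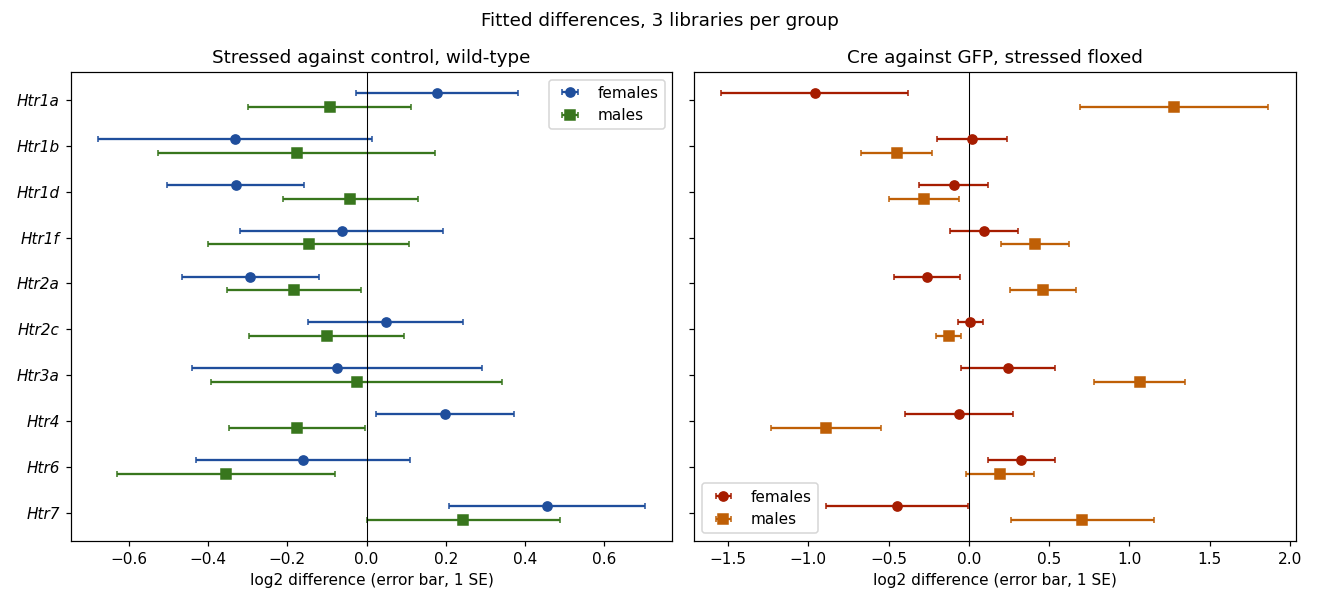
Fitted log2 difference of each serotonin receptor with its SE, for stressed against control WT mice (left) and for Cre against GFP in stressed floxed mice (right), females as circles and males as squares, from 3 libraries per group. All stress values lie between -0.36 and 0.45, whereas in Cre males Htr1a reaches 1.28 and Htr3a 1.06 and Htr4 lies at -0.89.

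The second question is what loss of Dnmt3a changes in stressed mice. Dnmt3a itself was at 139.5 ± 2.99 CPM in Cre and 172 ± 8.63 CPM in GFP males (SD, n = 3 libraries each). The log2 difference was -0.30 (SE 0.06, edgeR adjusted p = 0.0149). In females it was at 148 ± 7.89 against 162 ± 7.19 CPM, with overlapping libraries and a log2 difference of -0.12 (SE 0.06, edgeR adjusted p = 0.829). Gene-level counts include reads from outside the flanked part and from cells without virus, so they are no direct measure of the deletion.

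In males, none of the 10 serotonin receptors passed at an adjusted p below 0.05 in edgeR, where 4.96% of 17597 genes did. Htr3a came closest and stood 2.09 times higher with Cre, and Htr4 was lower in each Cre male library than in any GFP male library. At an unadjusted p below 0.05 stood 3 of 10 members, Htr2a, Htr3a and Htr4, beside 24.8% of all genes. Groups were free of overlap for 3 of 10, Htr3a and Htr7 higher and Htr4 lower, beside 29.4% of all genes. DESeq2 called 2 members, Htr3a (adjusted p = 0.0163) and Htr4 (adjusted p = 0.0411), and limma-voom called 0.

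Htr3a stood at 1.60, 1.35 and 0.892 CPM in GFP males and at 3.24, 2.94 and 1.76 CPM in Cre males. Every Cre male library lay above every GFP male library, and the lowest Cre value was close to the highest GFP value. The log2 difference was 1.06 (SE 0.28, edgeR adjusted p = 0.0524). Over 25 alternative settings its log2 value stayed between 0.85 and 1.59, and its adjusted p ran from 0.0163 to 1. It passed without Cre male library 3 (log2 1.28, edgeR adjusted p = 0.0174) and did not pass without either other Cre male library or without any GFP male library, where the adjusted p ran up to 0.168. In females Htr3a stood at 1.03, 1.39 and 0.973 CPM with GFP and 1.44, 1.57 and 1.03 CPM with Cre, a log2 difference of 0.24 (SE 0.29).

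Htr4 stood at 17.9, 19.6 and 11.7 CPM in GFP males and at 9.73, 7.29 and 9.55 CPM in Cre males. The log2 difference was -0.89 (SE 0.34, edgeR adjusted p = 0.15). In females the values were scattered in both groups, 12.1, 23.5 and 16.0 CPM with GFP and 9.86, 23.9 and 15.9 CPM with Cre, and the log2 difference was -0.06 (SE 0.34). The other Gs-coupled members in males were Htr6, at 0.19 (SE 0.21), and Htr7, at 4.96, 6.02 and 4.03 CPM with GFP against 7.25, 10.5 and 6.56 CPM with Cre. The Htr7 groups did not overlap, yet the spread left a log2 value of 0.71 (SE 0.44, edgeR adjusted p = 0.354), which was 0.47 without Cre male library 2.

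Htr1a stood at 8.39, 9.69 and 6.17 CPM in GFP males and at 14.5, 34.6 and 8.85 CPM in Cre males, groups that overlapped. Its log2 difference of 1.28 (SE 0.59, edgeR adjusted p = 0.214) was the largest of the family in males. Without Cre male library 2 it was 0.54. In females the value had the other sign, with 18.8, 9.56 and 29.4 CPM under GFP and 7.05, 16.6 and 6.45 CPM under Cre, a log2 difference of -0.96 (SE 0.58, edgeR adjusted p = 0.872). Without GFP female library 3 this value was -0.52, and without Cre female library 2 it was -1.52.

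Htr2a stood at 11.5, 18.0 and 12.5 CPM in GFP males and at 25.5, 16.1 and 16.3 CPM in Cre males, which overlapped, with a log2 difference of 0.46 (SE 0.21, edgeR adjusted p = 0.195), and of 0.21 without Cre male library 1. Htr2c held 228, 247 and 238 CPM with GFP and 232, 213 and 209 CPM with Cre in males, a log2 difference of -0.13 (SE 0.08). In females it was the most tightly measured member of the family, with 0.01 (SE 0.08). Among the remaining Gi/o-coupled members the male values were -0.45 (SE 0.22) for Htr1b, -0.28 (SE 0.22) for Htr1d and 0.41 (SE 0.21) for Htr1f, with adjusted p of 0.232, 0.456 and 0.255 in edgeR. Without Cre male library 2 the values of Htr1b and Htr1d were -0.22 and -0.04.

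In females, no member was called by edgeR, DESeq2 or limma-voom, beside 0% of all genes in edgeR. None had an unadjusted p below 0.05, beside 5.96% of all genes, and 0 of 10 were free of overlap, beside 11.5%. The log2 values ran from -0.96 for Htr1a to 0.33 (SE 0.21) for Htr6. For the mean of the sexes, 0 members passed in edgeR, DESeq2 or limma-voom, beside 1.42% of all genes, and 1, Htr3a, had an unadjusted p below 0.05, beside 14.2%. Its log2 value was 0.65 (SE 0.20, edgeR adjusted p = 0.158).

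The Cre effects of the sexes were compared by their difference, female minus male. No member passed in edgeR, DESeq2 or limma-voom, beside 0.0114% of all genes, and 2 of 10, Htr1a and Htr2a, had an unadjusted p below 0.05, beside 17.5%. The log2 difference of effects was -2.24 (SE 0.83, edgeR adjusted p = 0.224) for Htr1a and -0.72 (SE 0.29, edgeR adjusted p = 0.245) for Htr2a. For Htr1a it was -1.06 with Cre male library 2 and GFP female library 3 both left out, an alternative added after their values were seen. Htr7 had -1.16 (SE 0.63), and -0.61 without the same 2 libraries. Htr3a had -0.82 (SE 0.41). Htr4 had 0.83 (SE 0.48), and 0.47 without Cre female library 2.

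Markers of neighbouring tissue moved with these values in Cre males. Genes of cortical excitatory neurons summed to 706 to 1187 CPM in Cre males, 419 to 459 CPM in GFP males, 440.3 to 520.0 CPM in Cre females and 442 to 460.0 CPM in GFP females. Of the 15 listed, 10 were called higher in Cre males and the median log2 difference was 2.13. Slc17a7, which loads glutamate into the vesicles of cortical neurons, stood at 428, 408 and 168 CPM in Cre males against 1.29, 2.76 and 15.3 CPM in GFP males. Ttr, the transthyretin gene that marks choroid plexus, was at 125, 1847 and 23.8 CPM in Cre against 0.952, 1.48 and 15.3 CPM in GFP males. None of 15 tested genes of the choroid plexus list was called, with a median log2 difference of 3.60. Of 10 tested genes of striatal interneurons, 3 rose in Cre males with a median over the list of 0.35, namely the neuropeptide genes Sst at 0.54, Npy at 0.44 and Vip at 3.07, the last of a class of cortical interneurons. Their list summed to 487 to 538 CPM in Cre and 428 to 439.9 CPM in GFP males. All 6 tested genes of the list for septum, pallidum and hypothalamus were positive with a median of 0.74, and Prdm8 rose. Genes shared by medium spiny neurons were negative for 11 of 11 with a median of -0.34 and none called. Of the D1 neuron list, Isl1 was called lower in Cre males at -0.65 (edgeR adjusted p = 0.0115) and Eya1 higher at 0.69 (edgeR adjusted p = 0.0229). With the cortical score as a covariate in the fit, Htr4 in males had a log2 value of 0.06 and Htr2a -0.07, and Htr3a 1.59. The cortical sums of Cre males lay above those of all other floxed groups, so such a fit cannot tell the score from Cre in males. The part of this tissue makeup in the receptor values was not tested beyond these fits.

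Between the sexes, no member differed at an adjusted p below 0.05, beside 0.0393% of genes in WT and 0.0682% in floxed mice, and DESeq2 and limma-voom called 0 members in both. In WT mice 1 of 10 members, Htr6, had an unadjusted p below 0.05, beside 5.03% of all genes. It stood at 15.9, 12.6 and 11.4 CPM in control and 16.1, 11.5 and 8.07 CPM in stressed females, and at 12.5, 9.01 and 9.45 CPM in control and 9.02, 5.32 and 9.83 CPM in stressed males. Its log2 difference, female against male, was 0.46 (SE 0.19, edgeR adjusted p = 0.971). In floxed mice 1 of 10, Htr3a, had an unadjusted p below 0.05, beside 6.68%, with a log2 difference of -0.58 (SE 0.20, edgeR adjusted p = 0.6). Htr6 in floxed mice had 0.25 (SE 0.15), and X-linked Htr2c had -0.05 (SE 0.14) in WT and -0.10 (SE 0.06) in floxed mice.

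Some members moved together from library to library. Correlations are given as descriptions over the 12 libraries of an experiment, which share a fit, a tissue punch and group differences. Htr1a and Htr7 had a Pearson r of 0.91 (Spearman rho 0.92) in the floxed experiment, and 0.89 without the 2 libraries farthest from the median of Htr1a. In the wild-type experiment r was 0.57, rho 0.06 and r without those 2 libraries -0.10, so the relation there rests on them. Htr1b and Htr1d had an r of 0.82 (rho 0.64) in wild-type and 0.76 (rho 0.31) in floxed libraries, and 0.57 and 0.16 without the 2 libraries farthest in Htr1b. Htr2c and Htr6 ran opposite, with -0.69 and -0.34, and -0.48 and -0.24 without 2 libraries. All 45 pairs of members were computed.

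**Figure D4:**
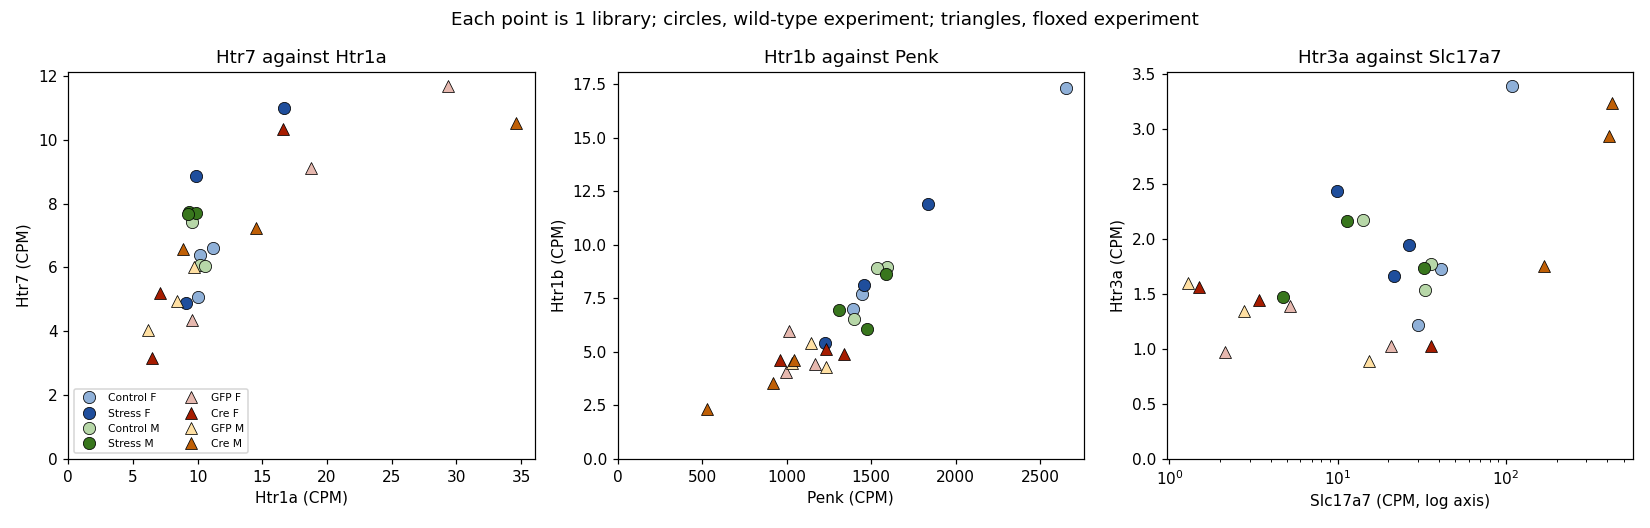
CPM per library of Htr7 against Htr1a, Htr1b against Penk and Htr3a against Slc17a7 (log axis), with the wild-type experiment as circles and the floxed experiment as triangles, each scaled apart. Htr7 is high where Htr1a is high among the triangles, 1 control female library leads Htr1b and Penk at 17.3 and 2653 CPM, and the libraries with the most Slc17a7, 428 and 408 CPM, are Cre males with Htr3a at 3.24 and 2.94 CPM.

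Libraries high in Htr1a and Htr7 were also high in genes of the septum, pallidum and hypothalamus, regions that lie near the accumbens, and Htr1a is known to be abundant in the septum. The 12 listed genes summed to 178 CPM in Cre female library 2, 165 CPM in GFP female library 3 and 139 CPM in Cre male library 2, and to 37.0 to 86.6 CPM in the other 9 floxed libraries. Those 3 libraries held 16.6, 29.4 and 34.6 CPM of Htr1a and 10.3, 11.7 and 10.5 CPM of Htr7. Over the 12 floxed libraries, r with the mean of the 6 tested genes of the list was 0.87 (rho 0.80) for Htr1a and 0.82 (rho 0.86) for Htr7, and 0.82 and 0.87 without the 2 libraries farthest on the marker axis. In the wild-type experiment, where the sum stayed between 38.7 and 79.9 CPM, r was 0.31 and 0.37. The relation was not particular to this list. With genes shared by medium spiny neurons, floxed r was -0.83 (rho -0.90) for Htr1a and -0.69 (rho -0.89) for Htr7. Without 2 libraries these were -0.90 and -0.88, and wild-type r was -0.30 and -0.71. With the interneuron list r was 0.80 and 0.62 in floxed and -0.26 and -0.07 in wild-type libraries. Zic1 and Trpc4, at up to 128 and 38.2 CPM, made most of the floxed sums, while the hypothalamic genes Hcrt, Avp, Oxt, Otp and Sim1 were at 0 counts in 2, 5, 7, 6 and 9 of 12 floxed libraries. Pmch and Pomc of the same list were above 0 in all 12, at 0.034 to 0.23 and 0.74 to 1.49 CPM. Whether such tissue accounts for the Htr1a and Htr7 values was not tested beyond a fit with this score as covariate, in which the male Cre values of Htr1a and Htr7 were -1.19 and -0.89. The list summed to 71.7 to 139 CPM in Cre males and 42.7 to 63.5 CPM in GFP males, so this fit cannot tell the score from Cre in males.

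Correlations of Htr1b, Htr1d and Htr6 with markers of medium spiny neurons differed by list and experiment. Htr6 had an r of 0.74 with the 5 tested genes of D2 neurons in both experiments (rho 0.78 and 0.81), and 0.68 in both without 2 libraries. Htr1b had 0.81 and 0.78 with the same list, and 0.49 and 0.17 without 2 libraries, and Htr1d had 0.70 and 0.86 with genes shared by all medium spiny neurons, and 0.40 and 0.14. With the D1 list, Htr6 had -0.26 in wild-type and 0.56 in floxed libraries, and Htr1b -0.03 and 0.78. With the shared genes Htr6 had 0.45 and 0.54, and 0.24 and 0.01 without 2 libraries. The high values for Htr1b and Htr1d thus rest largely on single libraries, such as control female library 1 with 2653 CPM of Penk, the enkephalin gene of D2 neurons, and Cre male library 2 with 528 CPM. Htr4 ran against the cortical list, at -0.69 and -0.73, and with the D1 list in the floxed experiment, at 0.71 (0.80 without 2 libraries). The cortical relation was not particular to that list. With the list for septum, pallidum and hypothalamus Htr4 had -0.80 and -0.53, and -0.73 and -0.14 without 2 libraries. It had -0.59 and -0.52 with the interneuron list, and 0.09 and -0.67 with the choroid plexus list. Htr2c ran against the D2 list in wild-type libraries, at -0.84 (rho -0.82, and -0.77 without 2 libraries), but had 0.07 in floxed libraries. With the interneuron list it had -0.62 and -0.44. Htr2c is a known marker of choroid plexus, and its r with that list was 0.42 and -0.19. Cre male library 2, with 1847 CPM of Ttr, had 213 CPM of Htr2c, inside the 187 to 247 CPM of the experiment, and the part of choroid plexus in the Htr2c level was not tested.

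**Figure D5:**
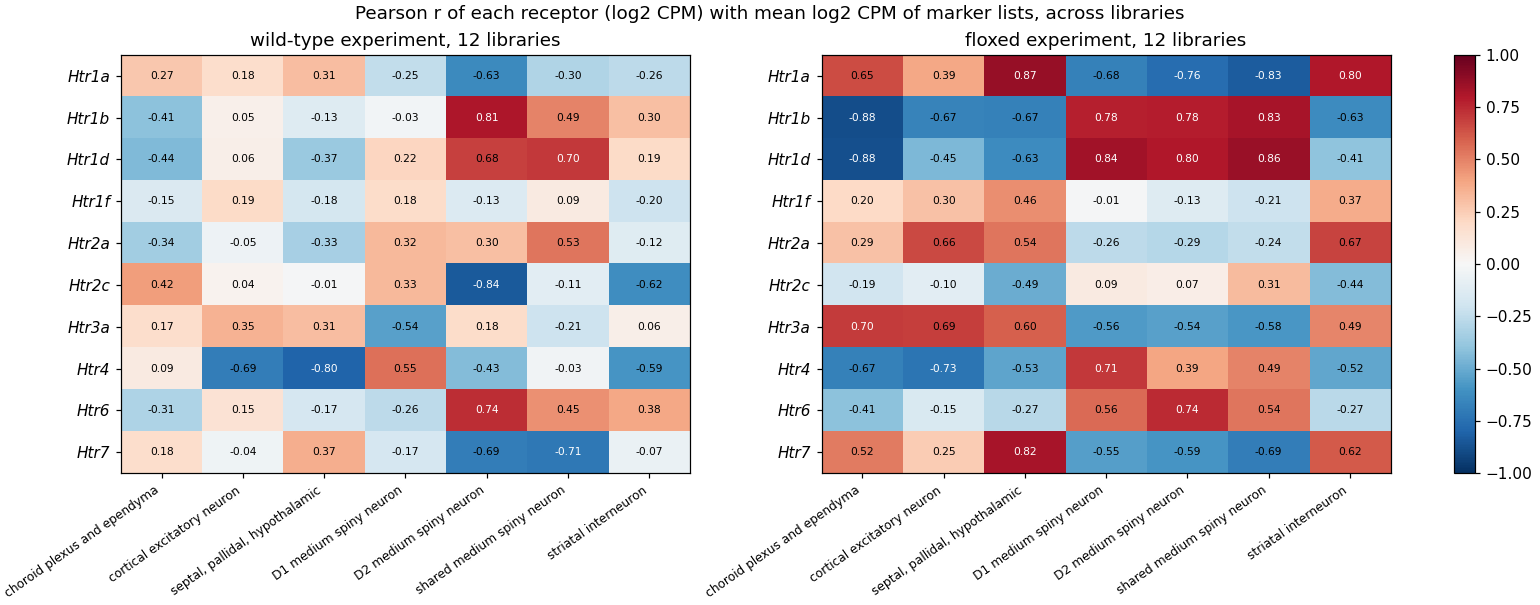
Pearson r across 12 libraries between the log2 CPM of each serotonin receptor and the mean log2 CPM of the tested genes of 7 marker lists, for the wild-type (left) and floxed (right) experiment. Htr6 with the D2 list reads 0.74 in both panels, whereas Htr1a with the septal, pallidal and hypothalamic list reads 0.31 on the left and 0.87 on the right.

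For each member, the 3 genes of most similar pattern were taken over the 24 libraries, centred on each experiment, from 13043 genes of at least 1 mean log2 CPM. Htr1a was most like Lrrc55, Chrm2 and Kcnd3 at r of 0.92, 0.92 and 0.91. Chrm2 is a muscarinic acetylcholine receptor and Kcnd3 a potassium channel. Htr7 was most like Pcdh20, Gpr165 and Plcb4 at 0.91, 0.91 and 0.90, Plcb4 being a phospholipase C. Htr1b was most like Mrtfb, Penk and Klf5 at 0.87, 0.87 and 0.85. Htr1d was most like Tacr1, the substance P receptor, Penk and Ptpn7 at 0.87, 0.86 and 0.85. Htr1b and Htr1d thus had Penk in common. Htr2c was most like Rab11fip2, Ttll7 and the sodium channel Scn2a at 0.92, 0.91 and 0.91, and Htr3a like Mycl, Pcsk5 and Enc1 at 0.86, 0.81 and 0.80. Htr6 was most like Trim46, Car11 and 2410002F23Rik at 0.84, 0.83 and 0.83, and Htr4 like Tmtc1, Isl1 and Sox1ot at 0.74, 0.74 and 0.71, where Isl1 is a transcription factor of D1 neurons. Htr1f and Htr2a had no gene above 0.70, with Chrdl1 at 0.68 and Dusp3 at 0.69 as the nearest.

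The rest of the serotonin pathway was measured from 3 lists. Of the 4 other receptor genes, Htr5a alone was well expressed, at 12.6 ± 1.51 CPM in wild-type and 12.6 ± 2.68 CPM in floxed libraries. Htr2b and Htr5b stayed below 1 CPM, and Htr3b, the partner subunit of Htr3a, had 0 to 3 counts per library and was at 0 in 7 wild-type and 4 floxed libraries. A count of 0 allows up to 3 counts, 0.42 CPM in the shallowest wild-type and 0.11 CPM in the shallowest floxed library, for counting error only. Among genes of synthesis, transport and breakdown, Tph2 and Slc6a4 of the raphe neurons were at the edge of detection. Tph2, the neuronal enzyme that starts serotonin synthesis, had a mean of 0.33 CPM in wild-type and 0.31 CPM in floxed libraries, and Slc6a4, the serotonin transporter, 0.27 and 0.11 CPM. Ddc, a synthesis enzyme of the same list, stood well above them at 13.6 ± 1.92 and 13.2 ± 1.82 CPM. Slc18a2, the vesicular transporter that all monoamine neurons share, stood higher at 5.82 ± 1.68 and 11.1 ± 3.94 CPM. Maoa and Maob, the monoamine oxidases that break serotonin down, stood at 36.5 ± 5.12 and 26.0 ± 4.53 CPM in the wild-type experiment.

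No gene of the 3 lists passed in any stress comparison, with 1 of 4, 8 of 12 and 20 of 20 tested. For the mean of the sexes the smallest p belonged to Slc22a3, a low-affinity monoamine transporter, at a log2 value of -0.39 (SE 0.13), and to Gnas, the Gs protein gene, at 0.37 (SE 0.13), both with an edgeR adjusted p of 1. Gnas shares exons with opposite-strand genes, and the sources used here do not give the strand setting of the counting.

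With Cre in males, 2 of 33 tested list genes rose and none fell, a share of 6.06% beside 4.96% of all genes, so the count is near the background. Tested were 3 of 4 other receptors, 10 of 12 genes of synthesis, transport and breakdown and 20 of 20 coupling partners. Htr5a, a Gi/o-coupled receptor, stood at 10.7, 10.7 and 10.5 CPM in GFP and 17.5, 18.0 and 13.8 CPM in Cre males, without overlap, a log2 difference of 0.63 (SE 0.11, edgeR adjusted p = 0.0115). S100a10, also called p11, which binds Htr1b and Htr4 receptors and brings them to the cell surface, stood at 3.13, 3.60 and 3.36 CPM in GFP and 6.12, 8.30 and 5.69 CPM in Cre males, also without overlap, a log2 difference of 1.00 (SE 0.18, edgeR adjusted p = 0.0137). Neither passed in females, where Htr5a ranged from 10.5 to 11.9 CPM with Cre and 11.1 to 13.5 CPM with GFP. The difference of the effects, female minus male, was -0.78 (SE 0.15) for Htr5a and -1.31 (SE 0.25) for S100a10, both with an edgeR adjusted p of 0.0756. Both calls were lost with the cortical, choroid plexus or septal score as a covariate, where the log2 values were 0.33, 0.44 and 0.36 for Htr5a and 0.64, 0.63 and 0.31 for S100a10. These fits left 0, 37 and 0 of all genes called, and the part of the raised cortical markers in them was not tested otherwise. The summed cortical and choroid plexus markers were higher in every Cre male library than in any other floxed library. The septal sums of all Cre males lay above those of all GFP males. None of these fits can therefore tell its score from Cre in males. Without GFP male library 1 the call for S100a10 was lost (adjusted p = 0.0561), and without GFP male library 2 or 3 those of both were lost (Htr5a 0.0533 and 0.0512, S100a10 0.0559 and 0.0613, all edgeR). Kcnj3, a channel opened by Gi/o-coupled receptors, and Mpdz, a scaffold that binds the Htr2c receptor, had log2 values of 1.14 (SE 0.29) and 1.01 (SE 0.26), with edgeR adjusted p of 0.0514 and 0.0556.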

How the data were processed

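RNA from 24 pools of 4 mice was sequenced after preparation with an Illumina mRNA kit. The authors deposited raw counts per Ensembl gene, whole numbers without scaling. The submitters' processing notes list Bowtie2 2.1.0, TopHat2 2.0.9, HTSeq 0.6.0, NCBIM37 and mm9, while the sources used here give neither settings nor strand. Symbols were matched by Ensembl ID to GENCODE M21 (32919 of 37991 genes matched), which also gave exon lengths. That annotation follows GRCm38, and no coordinates of the counted build are used. Htr1b overlaps an antisense gene in its exons, so its reads may be shared.

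Each experiment was fitted apart in R 4.3.3 with edgeR 4.0.16 (filterByExpr, TMM scaling, robust quasi-likelihood fit, a mean for each of 4 groups), and all 10 members passed the filter in both. Benjamini-Hochberg adjustment covered every gene tested, and an adjusted p below 0.05 was a call. Log2 differences are given with their SE, values as CPM. DESeq2 1.42.0, limma 3.58.1 (voom), other scalings and filters, blocks, marker scores and leaving out each library were the alternatives. The script was tested on simulated counts. The members and gene lists were chosen with earlier results of these data known. All members are named, with up to 4 list genes of smallest p per comparison and the 3 genes most like each member by Pearson r (log2 CPM, prior count 2).

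Replicate numbers in the labels were checked for pairing by correlating deviations from group means. In wild-type females every same-numbered pair had an r of 0.37 to 0.65 and counts as paired. In wild-type males (0.09 to 0.46) and in the floxed groups (-0.48 to 0.29) not every pair exceeded 0.1. Same-numbered pairs of wild-type males still had a median r of 0.37, against -0.12 for pairs of different numbers. Between the sexes the wild-type medians were 0.26 for the same and -0.26 for different numbers, and the same-numbered pairs ran from -0.27 to 0.67. Wild-type libraries numbered 1 had an r of 0.46 to 0.67 with each other. Likeness by number was thus not limited to females in the wild-type experiment, and stress values are unblocked unless stated.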

Additional observations from a re-analysis of the deposited data

How the results depend on the processing

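The number of serotonin receptors called was 0 in 9 of the 10 comparisons under every alternative run. For Cre in males it was 0 and became 1 with no filter on low counts, 1 with a filter of 1 CPM in 3 libraries, 1 with the replicate block, 1 with the replicate block within sex and 2 with DESeq2, and 0 to 1 on leaving out each library. The gene was Htr3a each time, with adjusted p of 0.0447, just below 0.05, 0.0304, 0.0472 and 0.0163, and Htr4 was the second with DESeq2. The pairing did not hold in floxed mice, so the block there shares only a number. The level of Htr2c per kilobase moved to 37.4 (wild-type) and 45.0 (floxed) with the longest transcript as length. Htr5a and S100a10 both had an adjusted p of 0.0508 with the replicate block within sex.

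Of 59 log2 values of at least 1 SE, 21 of 1411 alternative values changed sign; the cause was not tested. With the choroid plexus score these were Htr1a -0.20, Htr1b 0.012 and Htr1d 0.24 for Cre in males, and Htr1b 0.032 and Htr1d 0.093 for the mean of the sexes. With the cortical score they were Htr2a -0.071 and Htr4 0.058 for Cre in males, Htr4 -0.13 for the difference between the sexes and Htr4 -0.10 for stress in females. With the septal score, added after the data were seen, they were Htr1a -1.19, Htr1b 0.081, Htr1d 0.36, Htr2c 0.13 and Htr7 -0.89 for Cre in males, Htr1d 0.071 and Htr2c 0.05 for the mean, and Htr1a 0.65, Htr1b -0.16, Htr2c -0.17 and Htr7 0.73 for the difference. In floxed males the summed markers of each of these lists did not overlap between Cre and GFP, so the fits cannot tell a score from Cre there. Htr1b for stress over both sexes ran from -0.41 to 0.023 on leaving out each library, the latter without control female library 1. Of 47 values under 1 SE, 116 of 1105 alternative values changed sign and none passed.

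The number of all genes called varied more. For Cre in males it was 872, against 1811 with DESeq2, 551 with only the 2 groups fitted, 515 with the replicate block, 191 with the block within sex, 37 with the choroid plexus score, 0 with the cortical or septal score, and 93 (without GFP male library 2) to 1303 (without Cre male library 3) on leaving out 1 library. The ranges over all alternatives were 0 to 652 for the mean of the sexes (249 as reported), 0 to 606 for their difference (2), 0 to 34 for Cre in females (0), 7 to 92 for sex in floxed (12) and 5 to 14 in WT mice (6), 0 to 5 for stress in females (0), 0 to 4 in males (1), 1 to 13 over both (2) and 0 for their difference. Wild-type libraries were the shallower ones, which limits Htr3a and Htr1f, at 12 to 33 and 27 to 58 counts.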
